A study of Homo sapiens with 6 samples.

Results

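The RNA levels of 10 genes of the transforming growth factor beta (TGF-β) pathway were followed in LM3 cells with stable ZNF706 knockdown. The genes were chosen by name as ligands (TGFB1, TGFB2), receptors (TGFBR1, TGFBR2), SMAD proteins (SMAD2, SMAD3, SMAD4, SMAD6, SMAD7) and the co-repressor SKIL. All 10 were found, each in 1 row, among the 33007 genes of the deposited table, and all 10 had enough reads to be among the 18390 genes tested. LM3 is an established human line of hepatocellular carcinoma (HCC), and the series held 3 control samples (vector control) and 3 samples labelled ZNF706 knockdown, all with the genotype given as WT. The knockdown cells carried a short hairpin RNA in the lentiviral pLKO.1 vector and were selected with puromycin, so they were selected populations of 1 line. Which hairpin was used in the sequenced cells, and whether the 3 samples of a group were separate cultures, is not stated, so the p-values measure the spread between these samples, which may be technical. The total counts were 62684076, 64713764 and 63054445 in control and 68548419, 65861994 and 69057423 in the knockdown samples.

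In this pathway, TGF-β ligands bind the type II receptor TGFBR2, which activates the type I receptor TGFBR1. The active type I receptor phosphorylates SMAD2 and SMAD3, which join SMAD4 and enter the nucleus to regulate transcription. SMAD7 and SMAD6 are inhibitory SMADs induced by the signal itself, and SKIL (SnoN) holds SMAD complexes in a repressed state. In liver tumours the pathway is known for slowing growth early and for driving matrix production and invasion later.

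ZNF706, the targeted gene, gave 51.9, 55.1 and 54.7 CPM (the count relative to the library size, adjusted by the TMM method) in control and 33.5, 30.8 and 32.8 CPM in knockdown samples. The groups did not overlap, and the log2 difference was -0.73 (standard error 0.050, edgeR adjusted p = 3.7e-05), in the direction of the label. The cell type label was checked against markers. Of 15 hepatocyte and HCC markers, the keratins KRT18 and KRT8 were abundant, with mean FPKM values (the authors' values scaled to gene length and library size) of 270.6 and 192.6 in the control group. The plasma protein genes were low, with ALB at a mean of 2.63 FPKM and AFP at 0.787 FPKM in that group. Control replicate 1 and knockdown replicate 3 stood apart in some low genes of this list. The control counts of GPC3 were 6, 122 and 166 and its knockdown counts 127, 101 and 0. Those of ALB were 189, 899 and 882 against 587, 635 and 138. Other low genes went another way, with 122, 150 and 217 against 0, 4 and 138 for APOA1. APOA2 had 105, 137 and 139 against 17, 27 and 105. Control replicate 1 and knockdown replicate 3 come from different groups. Leaving both out ended the calls of TGFBR2 among the 10 genes and of BMP6, TGFB3, BMPR1A, STUB1, PPP2R1A and DAB2 among the pathway genes named below. COL1A2 was apart in the same libraries, with control counts of 117, 8 and 0 and knockdown counts of 0, 0 and 119. Of the markers of other cell types, some were near 0, such as the leukocyte gene PTPRC (at most 8 counts in any sample) and the endothelial gene VWF (at most 20). Others were expressed, with mean control FPKM values of 10.6 for CD68, 7.05 for COL1A1, 1.25 for CDH5, 0.667 for PECAM1 and 0.653 for PDGFRB.

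Ligand, receptor and SMAD genes were among those that differed in the knockdown. TGFB1, TGFBR1 and the inhibitory SMAD7 rose, with log2 fold changes of 0.37, 0.28 and 0.51. TGFBR2 and the common mediator SMAD4 fell, with log2 fold changes of -0.14 and -0.26. For TGFB2, SMAD2, SMAD3, SMAD6 and SKIL the test did not pass. A Benjamini-Hochberg adjusted p below 0.05 in edgeR's quasi-likelihood test was reached by 5 of the 10 genes and by 22.8% of all genes tested (10.4% higher, 12.4% lower). That split depended on the scaling, since 1906 genes were higher and 2286 lower with TMM, and 2742 and 1518 with library-size scaling. Well-counted genes pass more often. At mean counts of 300 or more, which all 10 exceeded, the share was 34.2%. The samples of the groups did not overlap for 6 of the 10 genes, against 39.4% of all genes tested (19.7% higher and 19.7% lower) and 51.4% of those with mean counts of 300 or more. In the same edgeR fit, at an unadjusted p under 0.05 with a log2 fold change of 0.3 or more in either direction, TGFB1 and SMAD7 passed, 2 of 10 against 15.5% of all genes. The median log2 fold change of the 10 genes was -0.05, and that of all genes tested was 0.01.

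**Figure D1:**
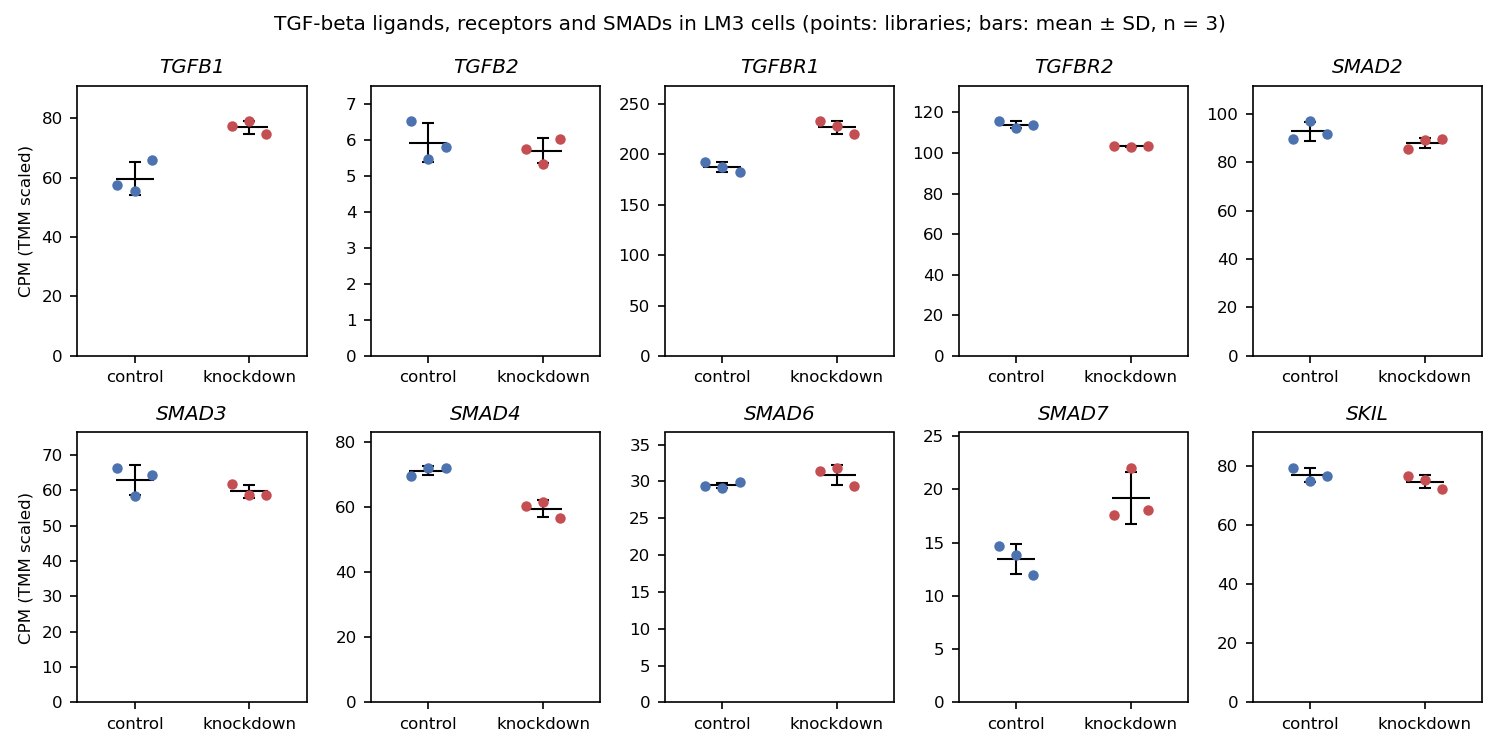
CPM of each of the 10 genes (vertical axes from 0) in the 3 control samples (blue) and the 3 knockdown samples (red), with the mean and SD in black. The samples of the groups do not overlap for TGFB1, TGFBR1, TGFBR2, SMAD2, SMAD4 and SMAD7, and overlap for TGFB2, SMAD3, SMAD6 and SKIL.

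Among the ligands, TGFB1 (ENSG00000105329, chromosome 19, 41301587 to 41353922, minus strand, GRCh38) encodes the main TGF-β isoform of most tissues. It had 57.6, 55.3 and 66.1 CPM in control and 77.2, 78.9 and 74.6 CPM in knockdown samples. Every knockdown sample lay above every control sample, although control replicate 3 was the highest of its group. The mean rose from 59.7 ± 5.66 to 76.9 ± 2.18 CPM (SD, n = 3 per group), or 0.37 on the log2 scale (standard error 0.062, edgeR adjusted p = 0.0026). Without control replicate 3 it was 0.44. The gene overlaps HNRNPUL1, CCDC97 and TMEM91 on the opposite strand, and whether the counting used strand is not stated. HNRNPUL1, whose counts were 459.8% of those of TGFB1, gave -0.07 on the log2 scale (edgeR adjusted p = 0.187), and CCDC97 gave -0.02 (edgeR adjusted p = 0.841). TMEM91, with 2.39% of the counts of TGFB1, gave 0.46 (edgeR adjusted p = 0.136). ENSG00000286177, which overlaps TGFB1 on the same strand and had 1.55% of its counts, gave 0.17 (edgeR adjusted p = 0.695).

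TGFB2 (ENSG00000092969, chromosome 1, 218345336 to 218444619, plus strand) encodes a second isoform, which needs the co-receptor betaglycan for efficient receptor binding. Its values were 6.51, 5.46 and 5.78 CPM in control and 5.73, 5.32 and 6.03 CPM in knockdown samples. The groups overlapped, and the log2 fold change was -0.06 with a 95% interval of -0.33 to 0.22 (edgeR adjusted p = 0.802). With a lowest mean of 381 counts among the 10 genes, it was also the least precisely measured.

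Between the receptors the directions were opposite. TGFBR1 (ENSG00000106799, chromosome 9, 99104038 to 99154192, plus strand), the type I receptor kinase ALK5, had 192, 187 and 182 CPM in control and 233, 228 and 220 CPM in knockdown samples. It rose from 187 ± 4.90 to 227 ± 6.36 CPM (SD, n = 3), or 0.28 on the log2 scale (standard error 0.036, edgeR adjusted p = 0.00069), and the gap between the groups was wider than the range within either. TGFBR2 (ENSG00000163513, chromosome 3, 30606601 to 30694142, plus strand), the type II receptor that binds the ligand, had 116, 113 and 114 CPM in control and 103.4, 103.0 and 103.3 CPM in knockdown samples. Its mean went from 114 ± 1.61 to 103.3 ± 0.213 CPM (SD, n = 3), or -0.14 on the log2 scale (standard error 0.032, edgeR adjusted p = 0.011). The size of this small fall depended on the scaling. It was -0.09 with library-size scaling in place of TMM (edgeR adjusted p = 0.0817), and -0.09 in limma on FPKM with a pseudocount of 0.1 or 1 (adjusted p = 0.0593 and 0.0588). With single samples left out it stayed between -0.16 and -0.14, and the call was lost in 1 of these 6 fits, without knockdown replicate 2 (-0.14, edgeR adjusted p = 0.0533). It was also lost without control replicate 1 and knockdown replicate 3 together (-0.13, edgeR adjusted p = 0.0623).

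The receptor-activated SMADs gave values slightly lower in the knockdown that did not pass the test. SMAD2 (ENSG00000175387, chromosome 18, 47808957 to 47931141, minus strand) had 89.6, 96.9 and 91.6 CPM in control and 85.6, 89.0 and 89.5 CPM in knockdown samples. The groups did not overlap by a narrow margin, and the log2 fold change was -0.07 (95% interval -0.17 to 0.02, edgeR adjusted p = 0.227), or -0.04 without control replicate 2. SMAD3 (ENSG00000166949, chromosome 15, 67063763 to 67195169, plus strand), which unlike the main form of SMAD2 binds DNA directly, had 66.4, 58.4 and 64.3 CPM in control and 61.8, 58.8 and 58.7 CPM in knockdown samples. Its groups overlapped, with a log2 fold change of -0.08 (95% interval -0.19 to 0.04, edgeR adjusted p = 0.343). It was -0.13 without control replicate 2 (edgeR adjusted p = 0.0916) and -0.04 without control replicate 1.

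SMAD4 (ENSG00000141646, chromosome 18, 51028394 to 51085045, plus strand), the partner shared by the TGF-β and BMP branches, was lower in every knockdown sample. It had 69.7, 71.9 and 72.2 CPM in control and 60.5, 61.5 and 56.6 CPM in knockdown samples. The mean went from 71.3 ± 1.37 to 59.6 ± 2.60 CPM (SD, n = 3), or -0.26 on the log2 scale (standard error 0.042, edgeR adjusted p = 0.0022).

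Of the inhibitory SMADs, SMAD7 rose and SMAD6 did not pass the test. SMAD7 (ENSG00000101665, chromosome 18, 48919853 to 48952052, minus strand), which blocks the type I receptor and recruits ubiquitin ligases to it, had the largest fold change of the 10 genes in the fit of all 6 samples. Its values were 14.7, 13.8 and 11.9 CPM in control and 17.6, 22.0 and 18.03 CPM in knockdown samples. All knockdown samples were above all control samples, and knockdown replicate 2 was the highest. From 13.5 ± 1.41 CPM it rose to 19.2 ± 2.44 CPM (SD, n = 3), or 0.51 on the log2 scale (standard error 0.114, edgeR adjusted p = 0.010). Without knockdown replicate 2 it was 0.41 (edgeR adjusted p = 0.0453), and without control replicate 3 it was 0.43, below the 0.44 of TGFB1. SMAD6 (ENSG00000137834, chromosome 15, 66702236 to 66782849, plus strand), which acts mainly on the BMP branch, had 29.4, 29.2 and 29.9 CPM in control and 31.5, 31.9 and 29.3 CPM in knockdown samples. The groups overlapped through knockdown replicate 3, and the log2 fold change was 0.07 (95% interval -0.06 to 0.20, edgeR adjusted p = 0.471), or 0.10 without knockdown replicate 3.

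SKIL (ENSG00000136603, chromosome 3, 170357678 to 170396835, plus strand), like SMAD7 a known early target of the pathway, gave values that overlapped between the groups. It had 79.4, 74.9 and 76.6 CPM in control and 76.5, 75.2 and 72.2 CPM in knockdown samples. The log2 fold change was -0.04 (95% interval -0.13 to 0.04, edgeR adjusted p = 0.483), and its sign depended on the setting.

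**Figure D2:**
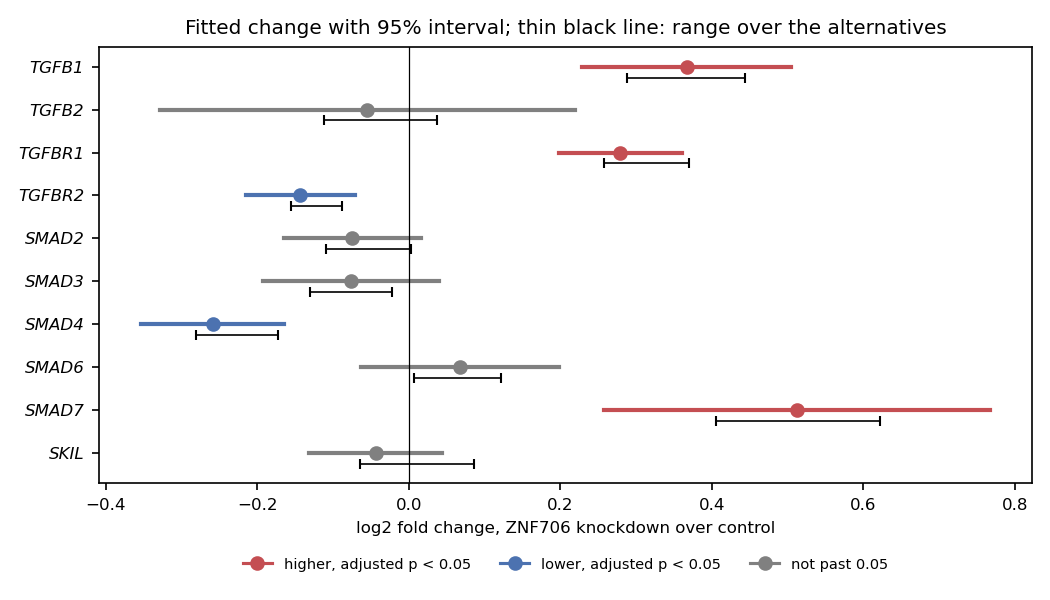
Log2 fold change of each gene in ZNF706 knockdown over control (point) with its 95% interval (thick line) and the range over the 16 alternative settings that gave a value (thin black line; TGFB2 had 14). SMAD7, TGFB1 and TGFBR1 lie to the right of 0 and SMAD4 and TGFBR2 to the left in the fit and in every alternative, while the intervals of the other 5 genes include 0.

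The sequences before the genes' starts are shown for the ligand, the receptor and the SMAD that rose, and for SMAD6, the inhibitory SMAD that did not pass. They are RefSeq promoter windows (GRCh38.p14) of 300 bases, 250 before and 50 after a transcription start, read 5′ to 3′ on the gene's strand. For each gene the window nearest the 5′ end of the deposited gene was taken, and all 10 genes had one. RefSeq gives 8 windows for TGFBR1 and 3 for SMAD7, so other starts of these genes are not shown. The start used for SMAD7 was 48950965, downstream of the deposited 5′ end. Capitals mark letters known to be bound by SMAD proteins, namely the palindrome GTCTAGAC and the shorter CAGAC, which was searched on both strands (GTCTG on the other) and does not overlap the palindrome here.
TGFB1 (chr19:41353873-41354172, minus strand): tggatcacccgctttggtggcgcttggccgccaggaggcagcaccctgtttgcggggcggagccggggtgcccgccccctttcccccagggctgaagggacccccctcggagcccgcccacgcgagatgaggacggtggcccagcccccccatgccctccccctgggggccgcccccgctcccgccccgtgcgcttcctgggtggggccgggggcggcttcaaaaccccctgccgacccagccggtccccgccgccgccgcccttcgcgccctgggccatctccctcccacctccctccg
TGFBR1 (chr9:99103802-99104101, plus strand): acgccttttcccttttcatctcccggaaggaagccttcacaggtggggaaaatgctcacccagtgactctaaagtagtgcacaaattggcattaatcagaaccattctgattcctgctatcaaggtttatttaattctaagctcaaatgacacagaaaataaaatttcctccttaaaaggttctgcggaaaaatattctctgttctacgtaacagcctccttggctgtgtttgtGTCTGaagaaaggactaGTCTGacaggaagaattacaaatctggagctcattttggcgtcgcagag
SMAD7 (chr18:48950916-48951215, minus strand): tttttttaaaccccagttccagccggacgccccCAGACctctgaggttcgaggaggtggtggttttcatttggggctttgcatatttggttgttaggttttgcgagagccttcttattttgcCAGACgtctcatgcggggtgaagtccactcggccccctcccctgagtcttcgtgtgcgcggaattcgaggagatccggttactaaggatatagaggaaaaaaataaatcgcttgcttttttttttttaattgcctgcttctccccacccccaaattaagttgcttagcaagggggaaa
SMAD6 (chr15:66701986-66702285, plus strand): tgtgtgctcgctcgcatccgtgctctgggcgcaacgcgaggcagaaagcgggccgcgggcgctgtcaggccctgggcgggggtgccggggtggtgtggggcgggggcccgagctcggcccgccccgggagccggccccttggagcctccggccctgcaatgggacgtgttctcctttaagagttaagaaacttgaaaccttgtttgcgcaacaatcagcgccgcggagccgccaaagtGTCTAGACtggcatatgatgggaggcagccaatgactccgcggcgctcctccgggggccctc

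The palindrome GTCTAGAC was found in 1 of the 10 windows, that of SMAD6, and in 0.202% of all 35116 windows. With 1 window taken per gene, the other windows of TGFBR1, TGFBR2, SMAD2, SMAD3 and SMAD7 were not counted for these genes. The counts over the 10 therefore do not show that a gene lacks either string at its other starts. CAGAC was found in 5 of the 10 windows (TGFB2, TGFBR1, SMAD3, SMAD7 and SKIL) and in 45.3% of all windows. Neither string was in the TGFB1 window, while TGFBR1 and SMAD7, which rose, and TGFB2, which did not pass the test, each had 2 matches of CAGAC. The share with CAGAC was near that of all windows. The GC content was 77.3% in the TGFB1 window, 41.7% in the TGFBR1 window and 48.3% in the SMAD7 window.

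Levels between genes were compared by FPKM, which takes length into account. In the control group the receptors and TGFB1 were highest, with TGFBR1 at 23.7 ± 0.830, TGFB1 at 15.8 ± 1.39 and TGFBR2 at 14.4 ± 0.296 FPKM (SD, n = 3), and the samples of TGFB1 and TGFBR2 overlapped. SKIL (8.53), SMAD3 (5.82), SMAD4 (4.68) and SMAD6 (2.97) followed as mean FPKM, each apart from its neighbours. SMAD7 (2.31) and SMAD2 (2.19) overlapped, and TGFB2 was last at 0.84 FPKM. In the knockdown group TGFB1 (21.1 FPKM) and TGFBR2 (13.4 FPKM) no longer overlapped, and SMAD7 (3.40 FPKM) overlapped both SMAD4 (4.04 FPKM) and SMAD6 (3.22 FPKM), its neighbours in that order. The low place of SMAD2 rests on the length used, since its counts and FPKM imply a gene model of 41.6 kb, against 10.6 kb for SMAD3. Its raw counts of 5547 to 6259 were above the 3709 to 4335 of SMAD3.

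The ratio of FPKM was then compared within 4 pairs, for which the length used for each gene is the same in every sample. The ratio of TGFBR1 to TGFBR2 was 1.67, 1.67 and 1.61 in control and 2.26, 2.22 and 2.14 in the knockdown samples. TGFB1 to TGFB2 went from 18.9 ± 2.44 to 25.3 ± 2.44 (SD, n = 3), and SMAD7 to SMAD6 from 0.777 ± 0.088 to 1.06 ± 0.112. In each of these 3 pairs every knockdown sample was above every control sample, with differences of 0.42, 0.42 and 0.44 on the log2 scale in that order. The exact permutation test gave a two-sided p of 0.1 for each, the smallest that 3 samples against 3 allow (adjusted p = 0.133 over the 4 pairs). SMAD2 to SMAD3 was 0.379 ± 0.041 and 0.378 ± 0.019, with an overlap of the groups and an exact p of 1. The first 3 differences mostly restate the changes of TGFBR1, TGFB1 and SMAD7 given above.

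**Figure D3:**
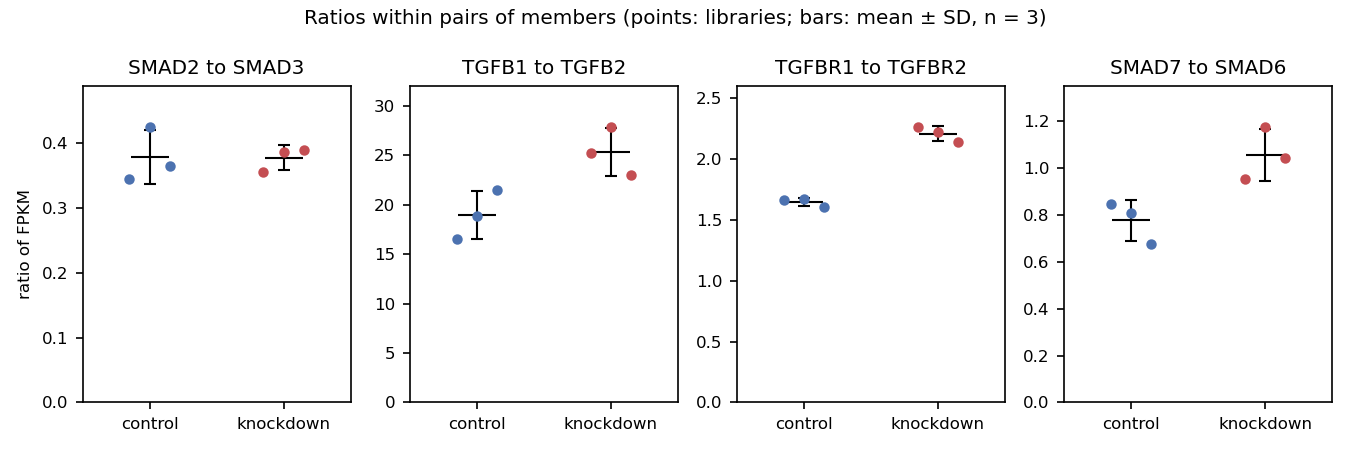
Ratio of FPKM (vertical axes from 0) within 4 pairs of genes in the 3 control samples (blue) and the 3 knockdown samples (red), with the mean and SD in black. The ratios of TGFB1 to TGFB2, TGFBR1 to TGFBR2 and SMAD7 to SMAD6 lie higher in every knockdown sample, and SMAD2 to SMAD3 overlaps.

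Genes that TGF-β is known to induce or repress were followed next. Of 23 tested target genes, 8 rose and 4 fell (52.2% past the threshold, against 22.8% of all genes tested and 34.2% of those with mean counts of 300 or more), with a median log2 fold change of 0.06. Not all of the 23 reached that mean count, and the same holds for each list set against this share below. PDGFB, a growth factor for mesenchymal cells, had 4.67, 6.94 and 5.51 CPM in control and 12.6, 14.4 and 16.1 CPM in knockdown samples. It rose 2.52-fold (log2 fold change 1.33, standard error 0.154, edgeR adjusted p = 0.00038), and all knockdown samples were above all control samples. PMEPA1, a feedback inhibitor that binds receptor-activated SMADs, had 62.4, 48.9 and 50.9 CPM against 88.7, 85.5 and 92.4 CPM, a log2 fold change of 0.72. The matrix gene FN1 (fibronectin) went from 126 ± 11.2 to 198 ± 8.59 CPM (SD, n = 3), a log2 fold change of 0.65. MMP2, a matrix-degrading gelatinase, went from 16.03 ± 0.542 to 23.0 ± 1.08 CPM (SD, n = 3), a log2 fold change of 0.52. CDKN2B, the cell cycle inhibitor p15, rose with a log2 fold change of 0.50, and BHLHE40 with 0.19. BHLHE40 had the highest FPKM of the list over all 6 samples (77.0), close to JUNB (76.7), which was higher in the control group (80.2 against 70.8 FPKM).

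Other targets of the same list moved the opposite way. ANGPTL4, a lipoprotein lipase inhibitor that PPAR receptors and hypoxia also control, had 54.8, 56.7 and 56.2 CPM in control and 28.2, 25.6 and 32.8 CPM in knockdown samples, or -0.95 on the log2 scale (standard error 0.080, edgeR adjusted p = 8.1e-05). TAGLN, an actin-binding protein of smooth muscle, gave -0.54 (-0.33 in limma on log2(FPKM + 1)), the crosslinking enzyme TGM2 -0.39 and the AP-1 subunit JUNB -0.18. The fall of TAGLN did not pass without knockdown replicate 2 (edgeR adjusted p = 0.0544), and that of JUNB did not pass in 4 of the 16 alternatives. The test was not passed by 11 further targets, among them SNAI1 (-0.03), TGFBI (-0.03) and CDKN1A (-0.09), all on the log2 scale.

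**Figure D4:**
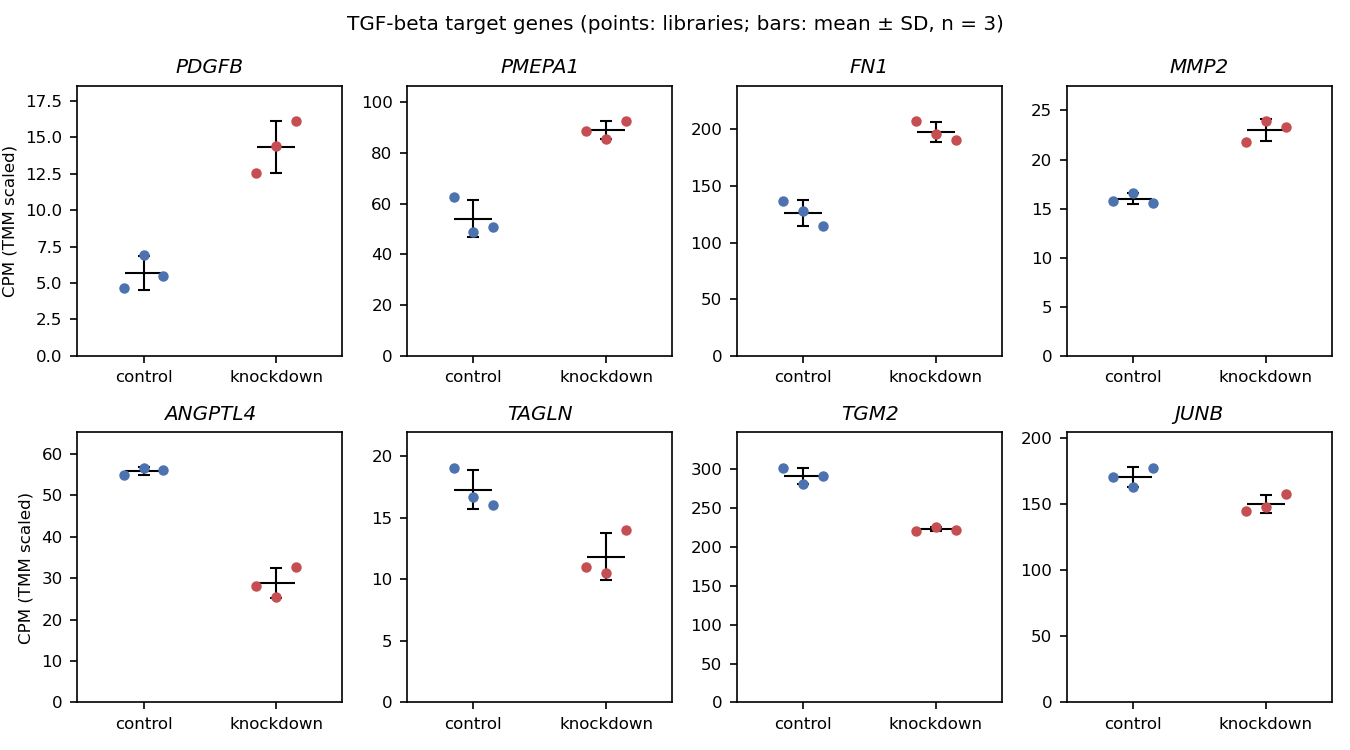
CPM (vertical axes from 0) of 4 TGF-β target genes that rose (PDGFB, PMEPA1, FN1 and MMP2) and the 4 that fell (ANGPTL4, TAGLN, TGM2 and JUNB) in the control (blue) and knockdown (red) samples, with the mean and SD in black. The 8 genes were picked by their change past the threshold, and their groups do not overlap. The same holds for 15 of the 23 tested targets and for 39.4% of all genes tested. PDGFB rose 2.52-fold, while ANGPTL4 went from a mean of 55.9 to 28.8 CPM.

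Of 8 tested BMP target genes, 1 rose and 2 fell, and the median was -0.11 on the log2 scale. Their share past the threshold, 37.5%, stands against 22.8% of all genes tested and 34.2% of those with mean counts of 300 or more, a level that not all of the 8 reached. ID1 and ID3, both inhibitors of basic helix-loop-helix factors, went in opposite directions: ID1 had 104, 104 and 108 CPM in control and 73.9, 78.8 and 75.3 CPM in knockdown samples (log2 fold change -0.47, edgeR adjusted p = 7.1e-05), and ID3 had 158, 152 and 160 CPM against 203, 219 and 241 CPM (log2 fold change 0.50, edgeR adjusted p = 0.00034). ATOH8 gave a log2 fold change of -0.68 at a low level (3.82 ± 0.135 CPM in the control group).

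Of 8 tested ligand traps, which act outside the cell, 3 rose and 1 fell (4 of 8, against 22.8% of all genes and 34.2% of well-counted ones, with a median log2 fold change of 0.03). The BMP antagonist GREM1 had 14.99, 12.7 and 11.03 CPM in control and 23.8, 24.8 and 24.7 CPM in knockdown samples, or 0.92 on the log2 scale (edgeR adjusted p = 0.00041) and 0.50 in limma on log2(FPKM + 1). FSTL1 (0.49) and FSTL3 (0.22), the latter an activin-binding protein and the trap with the highest FPKM, also rose. CHRD, another BMP antagonist, fell from a low level, with control counts of 58, 66 and 62 and knockdown counts of 15, 13 and 31 (log2 fold change -1.80). Among 15 tested genes of ligand latency and activation, 2 rose and 2 fell (26.7%, between the same shares, with a median of -0.04). THBS1, which can activate latent TGF-β, rose (0.50), as did FBN1 (0.38), the fibrillin to which latent complexes bind. FBN2 (-0.49, and -0.24 in limma on log2(FPKM + 1)) and the integrin subunit ITGAV (-0.19), the one with the highest FPKM, fell. With a correction for GC content, FSTL3 gave 0.13 and ITGAV -0.09, and neither passed (adjusted p = 0.0847 and 0.0649 from edgeR).

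Of 15 other ligands tested, 1 rose and 2 fell (20.0%, near the share of all genes). BMP2 had 9.03, 10.1 and 7.999 CPM in control and 5.15, 5.81 and 4.93 CPM in knockdown samples (log2 fold change -0.77, edgeR adjusted p = 0.0022, and -0.46 in limma on log2(FPKM + 1)). BMP6, an inducer of hepcidin in liver, gave 0.24 and was not past the threshold in 5 of the 16 alternatives, and TGFB3 gave -0.34 (-0.19 in limma on log2(FPKM + 1)) and was not in 11. BMP1, a protease named as a BMP, had the highest FPKM of the list (13.9 ± 0.415, SD, n = 3, in the control group). Among 14 other receptors and co-receptors, 2 passed the test (14.3%, below the share of all genes), both lower, the BMP type I receptors ACVR1 (-0.45) and BMPR1A (-0.15). ACVR1 did not pass in 5 and BMPR1A in 9 of the alternatives, and their values were -0.26 and -0.09 in limma on log2(FPKM + 1). ENG (endoglin), the co-receptor with the highest FPKM, was at 14.8 ± 0.695 FPKM in the control group and did not pass.

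Of 48 tested SMADs and regulators beyond the 10 genes, 3 rose and 15 fell (37.5%, against 22.8% of all genes tested, 10.4% higher and 12.4% lower, and 34.2% of well-counted ones), and the median log2 fold change was -0.03. With library-size scaling 5 rose and 12 fell, and in limma on log2(FPKM + 0.1) 6 rose and 10 fell. PPP1R15A (GADD34), a phosphatase subunit that SMAD7 can bring to the type I receptor, fell from 32.6 ± 0.970 to 20.2 ± 1.86 CPM (SD, n = 3), or -0.69 on the log2 scale (edgeR adjusted p = 0.00034). The endocytic adaptor DAB2 gave -0.68 at a low level and did not pass in 5 of its 14 alternatives, among them -0.46 without control replicate 1 and knockdown replicate 3 (edgeR adjusted p = 0.124). RNF111 (Arkadia), a ubiquitin ligase that marks SMAD7 and SKIL for degradation, had 55.9, 53.2 and 56.7 CPM in control and 38.9, 41.3 and 37.0 CPM in knockdown samples, or -0.50 on the log2 scale (edgeR adjusted p = 0.00023). LEMD3, a nuclear envelope protein that binds and restrains SMADs, fell (-0.46), and so did the BMP-branch SMAD5 (-0.28). Rises were found in USP11 (0.29), a deubiquitinase of the type I receptor, STUB1 (0.16) and PPP2R1A (0.11), of which STUB1 was not past the threshold in 6 of the alternatives and PPP2R1A in 10. With the correction for GC content STUB1 gave 0.07. RHOA had the highest FPKM of the list, 292 ± 5.17 in the control group.

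Across the table's own KEGG annotation of the TGF-β signaling pathway, which shares 9 genes with the 10 followed here, 10 of 75 tested genes rose and 19 fell (38.7% past the threshold, against 22.8% of all genes tested and 34.2% of well-counted ones, with a median log2 fold change of -0.04). The split was 11 and 13 with library-size scaling. GREM1, SMAD7, THBS1 and CDKN2B were its largest rises and CHRD, BMP2, ID1 and ACVR1 its largest falls.

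**Figure D5:**
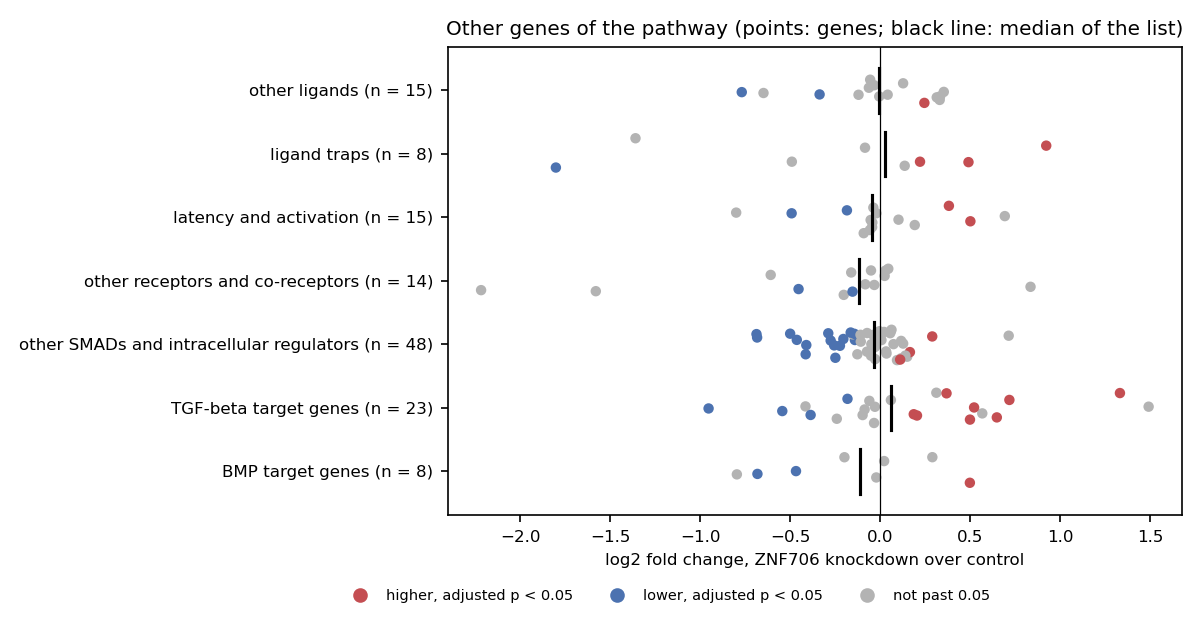
Log2 fold change (horizontal axis) of each tested gene in 7 lists of pathway genes, with rises past the threshold in red, falls in blue, other genes in grey, and the median of each list as a black line. The target genes have 8 rises and 4 falls, and the intracellular regulators 3 rises and 15 falls.

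Some markers of other cell types moved with the groups beside the matrix genes. Of 8 tested stellate cell and fibroblast markers, 3 were higher in the knockdown, namely COL1A1 (0.20, also among the TGF-β targets), PDGFRB (0.68) and RGS5 (0.62). The list had 4 positive and 4 negative log2 fold changes with a median of 0.01, and its share past the threshold was 37.5%, against 22.8% of all genes and 34.2% of well-counted ones. COL3A1 (-2.04) and LUM (-1.26) did not pass. The summed FPKM of the 10 markers was 11.6, 10.6 and 10.9 in control and 12.7, 13.2 and 12.3 in the knockdown samples, most of it from COL1A1, and DCN had at most 49 counts in any sample. Of the blood cell markers, 2 were tested and 1, the lysosomal gene CD68, was higher (0.64). Its list summed to 10.8, 10.5 and 11.1 FPKM against 16.8, 18.5 and 16.9 FPKM, nearly all of it CD68 itself, while PTPRC was at 0 counts in every knockdown sample. Of the endothelial markers, 2 were tested and 1, CDH5, was lower (-0.70), and its list, most of it CDH5 and PECAM1, summed to 1.79, 1.91 and 2.09 FPKM against 1.45, 1.62 and 1.71 FPKM. Of 14 tested hepatocyte and HCC markers, 2 passed the test, APOB (-0.98) and SERPINA1 (-1.47), both lower (14.3%, against 22.8% of all genes). Of the 14, 12 had a negative log2 fold change, and the median was -0.64. APOA1 (-1.95), APOA2 (-1.51) and HNF4A (-1.15) did not pass. The summed FPKM of the list, which KRT18 and KRT8 dominate and which therefore does not follow these low genes, was 457.7 to 492.0 in control and 455.3 to 472.3 in the knockdown samples. The part of other cells in these values was not tested, and in bulk RNA fewer cells of a type cannot be told apart from less RNA per cell.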

How the data were processed

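RNA-seq was analysed in 3 control and 3 ZNF706 knockdown samples of LM3 cells. The authors mapped the reads to the human genome with HISAT2, and the submitters' processing notes name cutadapt 1.9, FastQC and GRCh38. The counting program, its strand setting and the annotation release are not given in the sources used here. The deposited table holds raw counts per gene, without normalization, and FPKM values that the authors scaled to gene length and library size. Each measured column was named by the title of its sample.

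The quasi-likelihood test of edgeR 4.0.16 (R 4.3.3) was run on the counts after filterByExpr and TMM scaling, with group as the sole term. Benjamini-Hochberg adjustment covered the 18390 genes kept. The threshold was an adjusted p of 0.05. Standard errors were derived from each log2 fold change and its F statistic, and 95% intervals use the fit's degrees of freedom. On simulated counts, tests were run of the edgeR fit (also with a replicate term and with library-size scaling), DESeq2 and limma with a pseudocount of 0.1. The other alternatives, the ratios, the list counts and the motif search were not tested in this way. Alternatives were DESeq2 1.42.0, its size factors in edgeR, library-size scaling, no filter, a minimum mean count of 50, limma 3.58.1 on log2(FPKM + 0.1) or log2(FPKM + 1) where the mean FPKM reached 1, a replicate term, removal of each library's loess trend on GC content (longest transcript in GENCODE release 29), and each sample left out. Leaving out control replicate 1 and knockdown replicate 3 together was added after seeing the data.

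The 10 genes, the wider lists and the tests were chosen with earlier results of these data known. Named genes are the 10, ZNF706, and from each list up to 4 rises and 4 falls with the largest change past the threshold and the gene of highest FPKM. CDKN2B, SMAD5, SNAI1, TGFBI, CDKN1A and the markers given by value were also named, some after their values were seen. An item of the target list is not reported here and is left out of its counts and median.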

Additional observations from a re-analysis of the deposited data

How the results depend on the processing

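Over all 16 alternatives, 4 or 5 of the 10 genes were past the threshold. TGFB1, TGFBR1, SMAD4 and SMAD7 were called in each, with log2 fold changes of 0.29 to 0.44, 0.26 to 0.37, -0.28 to -0.17 and 0.41 to 0.62, and TGFBR2 (-0.16 to -0.09) was not in 5. SMAD3 ranged from -0.13 to -0.02 and SMAD6 from 0.01 (without the GC trend) to 0.12. ZNF706 ranged from -0.77 to -0.57. Signs turned for genes that were not called. TGFB2 gave 0.0375 without the GC trend, and -0.1118 to 0.0151 with single samples left out (the highest without control replicate 1). SMAD2 gave 0.0023 without the GC trend and reached -0.11 without control replicate 1 and knockdown replicate 3. SKIL gave 0.01 with library-size scaling, 0.0040 and 0.0036 in limma on log2(FPKM + 0.1) and log2(FPKM + 1), 0.0858 without the GC trend, 0.0036 without control replicate 1 and knockdown replicate 3, and -0.0649 to 0.0036 over all settings with samples left out. The causes were not tested.

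The number of genes called ranged from 2648 (without knockdown replicate 2) to 3424 with samples left out, against 4192, and was 2926 without a filter. With library-size scaling 2742 genes were higher and 1518 lower, against 1906 and 2286. With samples left out, the calls were 1 to 3 among other ligands, 0 to 2 among other receptors, 11 to 17 among other SMADs and regulators (11 without control replicate 1) and 19 to 25 in the KEGG pathway (19 without knockdown replicate 2). Other receptors had 1 call with library-size scaling, no filter or limma on FPKM, and other SMADs and regulators had 11 with no filter. The replicate block moved no call among the 10 genes and gave 4361 calls in all. Whether same-numbered samples shared a batch is not stated. The correlations of their deviations were 0.025, -0.039 and 0.019, against -0.056 to 0.039 for the other pairs of control and knockdown samples. At a mean of 381 counts, TGFB2 had the widest interval of the 10 genes. With 3 samples a group no exact test of a single value can pass 0.05.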
